A study of Mus musculus with 4 samples.

Results

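The 1038 genomic bins described here are stretches of 5 kb chosen by histone marks in mouse embryonic fibroblasts (MEF) and secondary MEF. In them histone H3 trimethylated at lysine 9 (H3K9me3) stood high in MEF and lower in secondary MEF. The Polycomb mark H3K27me3 was not high in MEF in these bins. They were chosen from 443447 bins with a read in any library on 18 autosomes, all but chromosome 12, and made up 0.234% of them. A level is a fold, the reads of a bin divided by the library's mean over the 494868 bins of the genome that held a read. A bin was chosen when MEF H3K9me3 was 2-fold or more, when secondary MEF H3K9me3 was at most 0.5 times the MEF fold, and when MEF H3K27me3 was under 2-fold. Both H3K9me3 libraries and the H3K27me3 library thus chose the bins, and their values inside the bins are a description and carry no test. H3K4me3, neighbouring bins, reads with 2 genome locations and reads of the strand not used for choosing were outside the rule or can be kept outside it.

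Secondary MEF were fibroblasts from chimeric embryos at 13.5 days post coitum. The embryos came from BDF2 blastocysts injected with induced pluripotent stem cells that carried inducible Oct4, Klf4 and Sox2 and a selectable cassette at Oct4 and had been derived in Wnt3a-conditioned medium. The injected cells' progeny was selected with 2 µg/ml puromycin for 48 hours, so host cells that survived this step could remain, and the label names the transgenes doxycycline-inducible without stating any doxycycline treatment of the cells. MEF were embryonic fibroblasts whose strain and embryo age the labels do not give. They were grown in medium with 10% FBS, against 10% cosmic calf serum with further supplements for secondary MEF. There was 1 library for each of secondary MEF H3K9me3, MEF H3K9me3, MEF H3K27me3 and MEF H3K4me3, and the secondary MEF library came from another flow cell than the MEF libraries. Cell source, medium and flow cell therefore cannot be told apart, no value has a replicate check, and all intervals below are 95% intervals for counting error only. The cell type could not be checked against marker genes, since a gene annotation on the files' build, mm8, was not used here.

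H3K9me3 is written by the SUV39H and SETDB1 methyltransferases and read by HP1 proteins, which compact chromatin. In fibroblasts, as in other somatic cells, it covers pericentromeric satellites, endogenous retroviruses, clusters of zinc finger genes and broad silent domains, and such domains are known to resist reprogramming factors. H3K27me3 is written by Polycomb repressive complex 2 at silent developmental genes, and H3K4me3 marks active and poised promoters. The H3K9me3 libraries of secondary MEF and MEF were made with the same antibody lot, which allows the mark to be set side by side in both.

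The libraries held 7808262 distinct read positions for secondary MEF H3K9me3, 8729865 for MEF H3K9me3, 9175201 for MEF H3K27me3 and 11195124 for MEF H3K4me3. A bin of average level thus had 15.8, 17.6, 18.5 and 22.6 reads in these libraries, and a bin at 2-fold MEF H3K9me3 had only 36 reads. This depth sets the precision of every single bin named below. Bins of 5-fold or more in every library numbered 68 among the eligible bins. The rule's limit on H3K27me3 keeps such bins out of the chosen ones by construction.

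Most of the chosen bins lay close to the thresholds that chose them. Secondary MEF had 7 to 30 reads in them, with a median of 16 or 1.01-fold, so H3K9me3 there stood at the level of an average bin rather than near 0. MEF had 36 to 69 reads, with a median of 39 or 2.21-fold. In secondary MEF 486 of the 1038 bins were under 1-fold and 2 were at or under 0.5-fold. In MEF 813 bins (78.3%) were under 2.5-fold and 47 reached 3-fold. The ratio of secondary MEF to MEF ran between 0.196 and 0.4995 with a median of 0.436, and 746 bins (71.9%) had a ratio of 0.4 or more. The ratio was under 1/3 in 80 bins. In 180 bins an interval that allows 0.1% error lay below 1, and in all 1038 the 95% interval did. These intervals use the reads that chose the bins, so they describe the counts and carry no test. The bins that the MEF H3K9me3 threshold just admitted had 36 MEF reads (2.04-fold) and those it just refused had 35 (1.98-fold). At the ratio threshold, bins just inside had 21 secondary MEF and 47 MEF reads and bins just outside 17 and 38. At the H3K27me3 threshold the counts were 37 reads inside (2.00-fold) and 38 outside (2.05-fold). At each of these edges a difference of 1 or a few reads in 1 library decided membership.

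**Figure D1:**
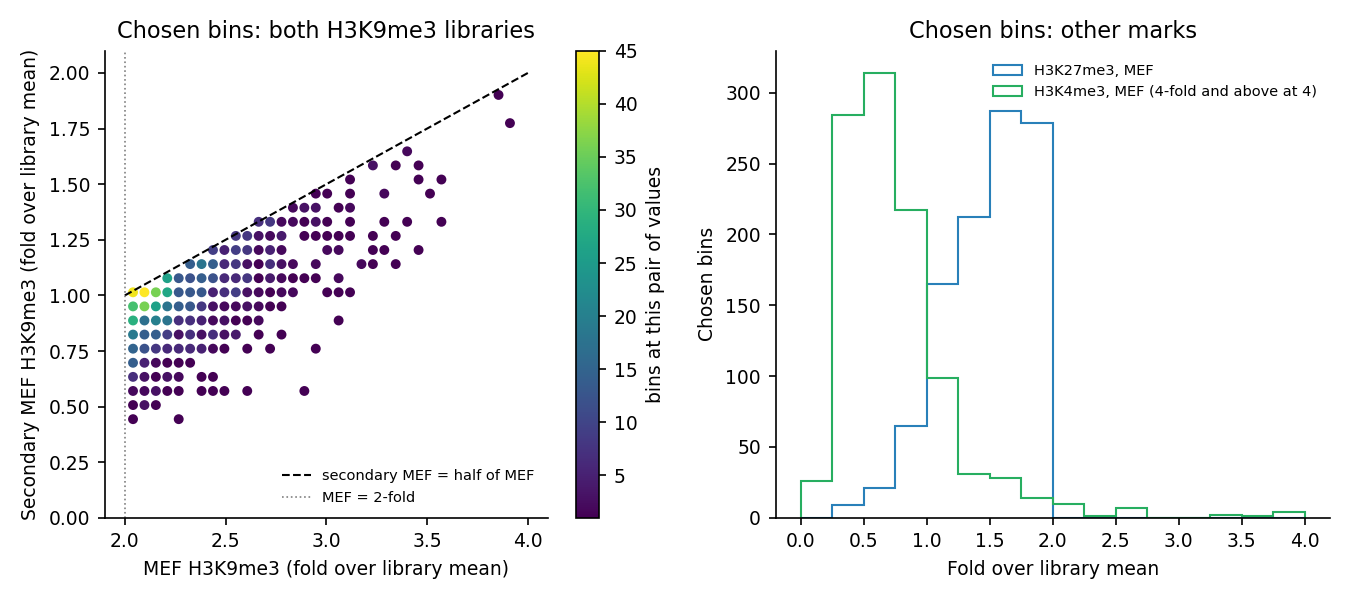
Left, each point is a pair of H3K9me3 levels found among the 1038 chosen bins (MEF on the horizontal axis, secondary MEF on the vertical axis, both as fold over the library mean), coloured by the number of bins with that pair; dashed and dotted lines are the rule's limits. Right, numbers of chosen bins by MEF H3K27me3 and MEF H3K4me3 fold in steps of 0.25. The bins crowd into the corner where both limits meet, and H3K4me3 peaks below 1-fold while H3K27me3 is cut off at 2-fold.

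The 10 chosen bins with the most MEF H3K9me3 had 60 to 69 MEF reads. The first lay on chromosome 2 from 163520001 to 163525000, with 28 reads in secondary MEF (1.77-fold) and 69 in MEF (3.91-fold). Its ratio was 0.454 (0.281 to 0.713). Its neighbour on the left had 2.98-fold in secondary MEF against 3.29-fold in MEF, beside H3K4me3 at 11.6-fold, and its neighbour on the right 1.33-fold and 1.36-fold. A difference of that size was seen in the chosen bin and not on either side, but only the chosen bin was picked for it. On chromosome 16 from 18365001 to 18370000 secondary MEF had 30 reads (1.90-fold) and MEF 68 (3.85-fold), while both neighbours were near equal, at 2.47-fold and 2.15-fold in secondary MEF against 2.32-fold and 2.27-fold in MEF. On chromosome 13 from 47015001 to 47020000 the counts were 24 in secondary MEF and 63 in MEF, with H3K27me3 at 1.56-fold and H3K4me3 at 0.575-fold. There the left neighbour was lower in secondary MEF as well, at 0.951-fold against 3.29-fold in MEF, and had H3K27me3 of 3.07-fold. The right neighbour was not, at 3.61-fold against 2.95-fold. On chromosome 9 from 118340001 to 118345000 secondary MEF had 21 reads and MEF 60, next to a bin with 11.7-fold H3K27me3. H3K27me3 itself had 37 reads in that chosen bin, the highest count the rule admits, and the same count occurred in 4 of these 10 bins.

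The lowest ratio belonged to chromosome 13 from 98380001 to 98385000, with 7 secondary MEF reads (0.444-fold) and 40 MEF reads (2.27-fold), a ratio of 0.196 (0.0740 to 0.441). The MEF reads were spread over the bin, with 3, 9, 12, 4 and 12 reads in its successive 1 kb steps, against 1, 2, 0, 2 and 2 in secondary MEF. Its right neighbour was chosen too, at 1.01-fold in secondary MEF against 2.32-fold in MEF. The pair together had 23 secondary MEF against 81 MEF reads, a ratio of 0.317 (0.191 to 0.510). This was the lowest of the 13 pairs of adjacent chosen bins. On chromosome 4 from 118710001 to 118715000 secondary MEF had 9 reads (0.570-fold) and MEF 51 (2.89-fold). Its right neighbour also differed, at 1.84-fold against 3.12-fold, and its left neighbour did little, at 1.96-fold against 2.15-fold. On chromosome 2 from 60230001 to 60235000 the counts were 7 in secondary MEF and 36 in MEF, and from 25575001 to 25580000 they were 9 and 43, where H3K4me3 had only 3 reads. The 10 lowest ratios lay between 0.196 and 0.242, and in 7 of them the upper end of the interval was under 0.5. These intervals use the same reads that chose and ranked the bins, so they carry no test.

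The chosen bins formed almost no longer regions. There were 1012 single bins and 13 regions of 10 kb, so the longest regions were all pairs. The pair with the highest MEF level was on chromosome 3 from 135255001 to 135265000, with 38 reads in secondary MEF against 96 in MEF, a ratio of 0.443 (0.296 to 0.651). On chromosome 4 from 46130001 to 46140000 the counts were 33 and 91, on chromosome 17 from 87320001 to 87330000 38 and 90, on chromosome 2 from 73025001 to 73035000 34 and 87, and on chromosome 7 from 34585001 to 34595000 36 and 83. All 13 tied in length, and these 5 were taken by their MEF level, an order set after the tie was seen. A chosen bin had at least 1 chosen neighbour in 26 cases, or 2.505% (1.64% to 3.65%). Counted by single neighbouring bins, 26 of 2068 (1.26%) were chosen, while 0.234% of eligible bins were. For comparison, the 17428 bins within the same MEF limits whose ratio was above 0.5, called kept bins here, had a kept neighbour in 35.0% of cases, but such bins are also far more numerous. The lower bins with H3K27me3 of 2-fold or more, 2967 in all, touched 34 chosen bins.

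Chosen bins were nevertheless unevenly placed over longer distances. Consecutive chosen bins were a median of 695 kb apart, and 660 (63.6%) had another within 500 kb. At a distance of 5 kb from a chosen bin 1.26% of bins were chosen, between 55 and 100 kb 0.863%, between 255 and 500 kb 0.538% and between 1005 and 2000 kb still 0.404%. The density of MEF H3K9me3 varied along with this. Bins within the MEF limits (MEF H3K9me3 2-fold or more, H3K27me3 under 2-fold) made up 11.03% of bins at 5 kb and 5.60% between 1005 and 2000 kb. Among bins within the MEF limits, 11.4% were chosen at 5 kb, 9.53% between 55 and 100 kb and 7.22% between 1005 and 2000 kb, against 5.62% of all 18466 such bins. Around kept bins these shares were 2.79%, 3.92% and 4.49%. Around chosen bins the fall with distance was not steady. Between 30 and 50 kb 0.756% of bins were chosen, and 7.91% of those within the MEF limits. The 11.4% at 5 kb rests on 26 of 228 bins.

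At the edges of the chosen bins the difference between the H3K9me3 libraries became smaller and did not end. In 1 kb steps, averaged over all 1038 bins, secondary MEF stood at 0.963-fold to 1.01-fold and MEF at 2.29-fold to 2.39-fold inside the bin, with ratios of 0.412 to 0.441. In the first step outside, 3 kb from the centre, secondary MEF was at 1.38-fold and MEF at 1.71-fold on the left side, a ratio of 0.804. On the right side these values were 1.301-fold and 1.56-fold, a ratio of 0.832. At 50 kb on the left the ratio was 0.861. Bin edges lie at multiples of 5 kb, wherever the chromatin changes. When the grid was moved by 2.5 kb, 1031 bins were chosen, and they overlapped 252 (24.3%) of the original ones. Kept bins showed a level of 2.30-fold in secondary MEF against 2.37-fold in MEF 1 kb left of their centre, and 2.00-fold and 1.87-fold at 3 kb.

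**Figure D2:**
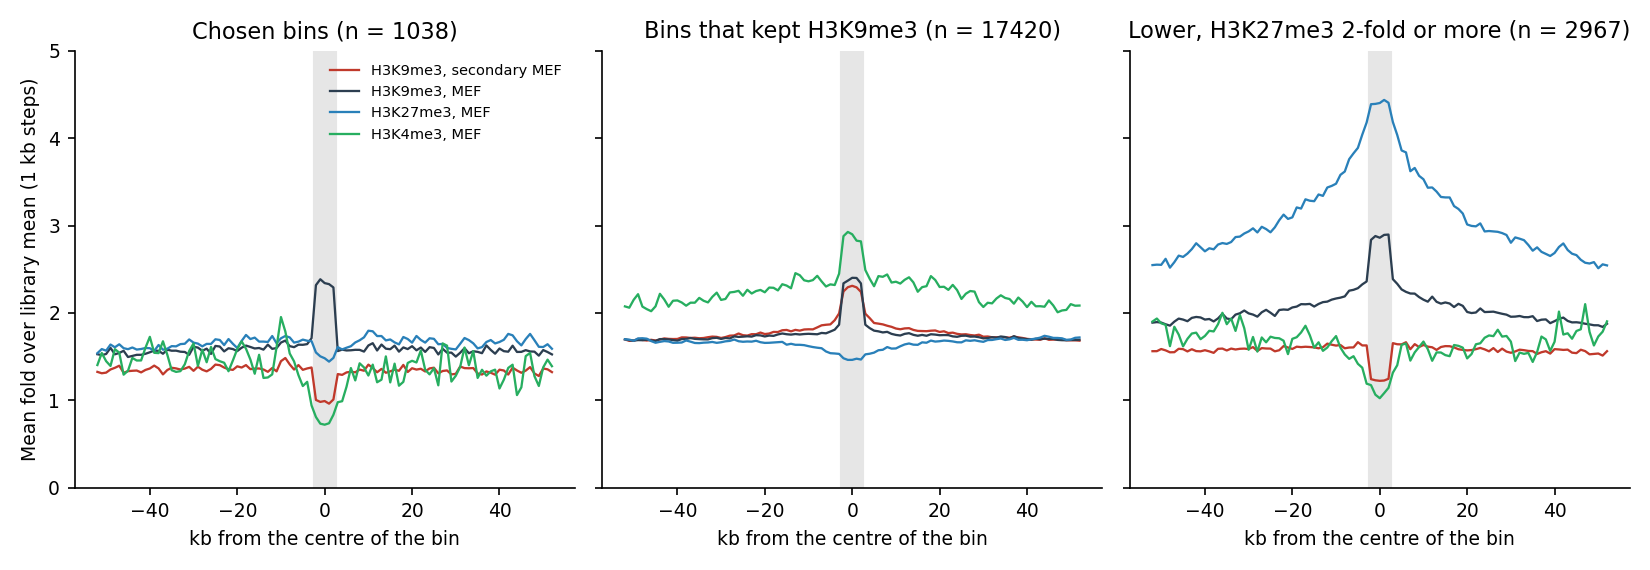
Mean level of each library in 1 kb steps, as fold over the library mean, up to 50 kb on either side of chosen bins (left), of kept bins (middle, 8 of the 17428 lie too near a chromosome end) and of lower bins with H3K27me3 of 2-fold or more (right); the grey band is the bin itself. Around chosen bins both H3K9me3 lines run flat outside the band, secondary MEF below MEF, and part sharply inside it.

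In reads that did not choose the bins, H3K9me3 was still lower in secondary MEF, but by far less. The 2050 neighbours at 5 kb that were not chosen themselves averaged 1.35-fold in secondary MEF against 1.60-fold in MEF, a ratio of 0.840 (0.830 to 0.851). Neighbours of kept bins had 1.91-fold and 1.80-fold, a ratio of 1.06. Reads that match 2 places in the genome are listed apart in the files, and inside the chosen bins 771 of them were found in secondary MEF and 1115 in MEF. Scaled to all 2-location reads of each library, the ratio was 0.746 (0.680 to 0.819), and 0.769 (0.697 to 0.848) without the 5 bins that held the most, against 0.994 (0.974 to 1.01) in kept bins. Such reads may belong to the other location.

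The strands of the libraries gave a further separation, since plus-strand and minus-strand reads come from different fragment ends. When the rule was applied to plus-strand reads alone it chose 3551 bins, where the ratio on those reads was 0.389 (0.383 to 0.394). The minus-strand reads of the same bins averaged 1.35-fold in secondary MEF against 1.64-fold in MEF, a ratio of 0.822 (0.811 to 0.833). Secondary MEF was lower on the minus strand in 2391 of the 3551 bins (67.3%). In bins that kept H3K9me3 by their plus-strand reads the minus-strand ratio was 1.08 (1.07 to 1.08), and secondary MEF was lower in 45.4%. Kept bins were themselves picked by their ratio. In all 23759 bins within the MEF limits on plus-strand reads, whatever their ratio, the minus-strand ratio was 1.04 (1.04 to 1.05). Choosing on the minus strand and measuring on the plus strand gave 0.828 (0.817 to 0.838). The rule was met on each strand by itself in 180 bins, 5.07% of the 3551 chosen on the plus strand and 4.99% of the 3605 chosen on the minus strand. Unused reads thus pointed the same way in these measures, at ratios of 0.746 to 0.840, where the reads that chose the bins gave 0.389 on the plus strand and 0.425 on both strands. Since most of the difference between these libraries was in the choosing reads, the bins are not called lost H3K9me3 here.

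**Figure D3:**
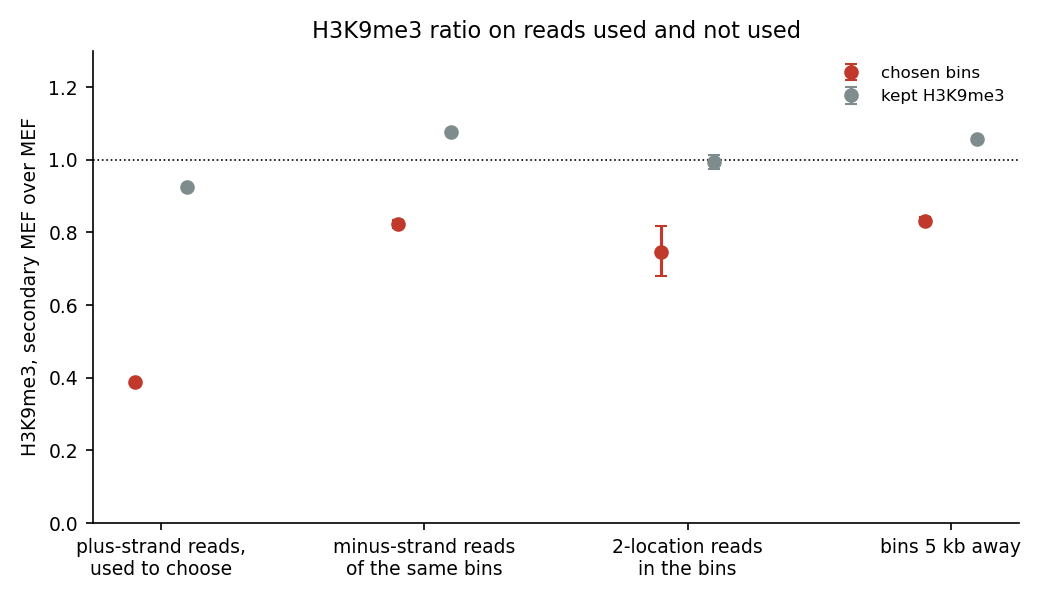
Ratio of secondary MEF to MEF H3K9me3 (vertical axis, 1 means equal shares) for chosen bins and kept bins, on the plus-strand reads used to choose, on the minus-strand reads of the same bins, on 2-location reads in bins chosen on both strands together, and in all bins 5 kb away; bars are 95% counting intervals, often smaller than the point. Chosen bins are at 0.389 on the choosing reads and between 0.746 and 0.833 on the others, below kept bins throughout.

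H3K4me3, which the rule did not use, was lower in the chosen bins than in kept bins but not lower than in eligible bins by median. It had 3 to 243 reads, a median of 15 or 0.663-fold, and was under 1-fold in 841 of them (81.0%), against 42.3% of kept bins and 82.8% of all eligible bins. Kept bins had a median of 1.15-fold and all eligible bins 0.354-fold, so chosen bins lay between these. Of the chosen bins 25 (2.41%) reached 2-fold H3K4me3, against 24.9% of kept bins and 7.0% of all eligible bins. Among bins within the MEF limits, 22.6% (15.3% to 31.3%) were chosen where H3K4me3 was under 0.25-fold, 15.3% (13.7% to 17.1%) between 0.25-fold and 0.5-fold, 8.50% between 0.5-fold and 1-fold, 2.93% between 1-fold and 2-fold, 0.778% between 2-fold and 5-fold, and 0.194% (0.0401% to 0.567%) from 5-fold upward. Across these classes the median secondary MEF level was 1.65-fold, 1.58-fold, 1.77-fold, 2.09-fold, 2.60-fold and 2.92-fold, while the MEF median stayed between 2.15-fold and 2.32-fold. The share of chosen bins was thus lower in each higher class of H3K4me3, while the secondary MEF H3K9me3 level was higher from 0.25-fold upward. Input libraries were not used here, and the part of background reads in this was not tested.

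The 3 chosen bins with H3K4me3 of 5-fold or more were singled out after their values were seen. On chromosome 1 from 88530001 to 88535000 H3K4me3 had 243 reads (10.7-fold), with 15 H3K9me3 reads in secondary MEF and 37 in MEF. On chromosome 4 from 140995001 to 141000000 it had 167 reads (7.38-fold), with 16 and 36. On chromosome 19 from 26810001 to 26815000 it had 134 reads (5.92-fold), with 16 and 44. The first and the third lay at the edge of H3K4me3 that continued to the right, at 6.41-fold and 5.57-fold in the next bin, and in the second it continued to the left, at 9.24-fold. Chosen bins were a median of 65 kb from a bin with H3K4me3 of 5-fold or more, kept bins 35 kb and all eligible bins 120 kb.

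H3K27me3 in the chosen bins had a median of 1.51-fold, and the rule kept it under 2-fold. It was 1.5-fold or more in 566 bins and under 1-fold in 95, so most chosen bins were not poor in H3K27me3 but just below its limit, and kept bins had the same median of 1.51-fold. The share of bins within the MEF limits that were chosen was 5.36% (2.48% to 9.93%) where H3K27me3 was under 0.5-fold, 4.27% (3.43% to 5.24%) between 0.5-fold and 1-fold, 5.87% between 1-fold and 1.5-fold and 5.74% between 1.5-fold and 2-fold. Outside the bins, where the rule did not act, H3K27me3 was often high. At least 1 direct neighbour was at 2-fold or more H3K27me3 for 40.4% of chosen bins, 34.0% of kept bins and 16.9% of all eligible bins, where 11.7% of single eligible bins reach that level. Within 10 kb such a bin was found for 56.4%, 49.5% and 23.8%.

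The neighbours of chosen bins also varied with H3K27me3. Beside the 95 chosen bins with H3K27me3 under 1-fold, the ratio in neighbouring bins was 0.928 (0.888 to 0.971), with averages of 1.19-fold in secondary MEF against 1.29-fold in MEF. Beside the 566 with 1.5-fold or more it was 0.812 (0.799 to 0.825), with 1.38-fold and 1.70-fold. On 2-location reads inside the bins these ratios were 0.899 (0.660 to 1.22) and 0.697 (0.614 to 0.791). Of these 2 classes the bins lower in H3K27me3 thus had the smaller difference beside them. In 2-location reads their ratio was also nearer to 1, but the intervals of the 2 classes overlap and theirs includes 1. The lower bins with H3K27me3 of 2-fold or more made up 9.45% of 31386 bins with both marks, against 5.62% for the chosen bins within their limits. In their unchosen neighbours the ratio was 0.713 (0.709 to 0.718), below the 0.840 beside the chosen bins, and on minus-strand reads after choosing on the plus strand it was 0.684 (0.678 to 0.691), below 0.822. The counting intervals of each pair do not overlap. With 1 library a group, no test of these differences between conditions is possible.

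In most chosen bins MEF H3K9me3 of 2-fold or more did not reach a neighbouring bin, though it did so more often than around eligible bins as a whole. In 634 bins (61.1%) no direct neighbour was at 2-fold MEF H3K9me3, against 46.7% of kept bins and 23.4% of lower bins with high H3K27me3. At least 1 neighbour was at that level for 38.9% of chosen bins, 53.3% of kept bins and 17.3% of all eligible bins, where 11.2% of single eligible bins reach it. Beside these 634 the neighbouring ratio was 0.877 (0.862 to 0.892). Another 79 chosen bins lay in MEF H3K9me3 runs of 25 kb or more, where the neighbours had 1.75-fold in secondary MEF against 2.34-fold in MEF, a ratio of 0.749 (0.720 to 0.779), beside H3K27me3 at 2.59-fold. Inside the bins the reads were not focused on a point. The fullest 1 kb step held a median of 32.5% of a chosen bin's MEF reads, and 31.6% in kept bins. Distinct positions made up 97.8% of secondary MEF and 98.0% of MEF H3K9me3 reads in chosen bins, and the plus strand 49.7% and 50.2%, against 97.6% and 97.9% distinct, and 50.0% and 50.1% on the plus strand, in kept bins.

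A smaller ratio in the chosen bin went with a somewhat smaller one beside it. Neighbours of the 80 bins with a ratio under 1/3 had 1.22-fold in secondary MEF against 1.58-fold in MEF, a ratio of 0.773 (0.738 to 0.809). Beside bins between 1/3 and 0.4 it was 0.822 (0.7998 to 0.846), and beside the 746 with 0.4 or more 0.852 (0.840 to 0.865). The 47 bins of 3-fold or more MEF H3K9me3 had neighbours at 1.61-fold and 2.02-fold, a ratio of 0.799 (0.757 to 0.842). Beside the 13 pairs the outer neighbours had 1.51-fold and 1.64-fold, a ratio of 0.916 (0.823 to 1.02), an interval that includes 1.

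The chosen bins were uneven among chromosomes. Chromosome 4 held 113 of them, or 10.9% with 6.59% of the eligible bins, chromosome 7 held 102 and chromosome 13 held 87. Of bins within the MEF limits, 9.52% (7.69% to 11.6%) were chosen on chromosome 13, 9.27% (7.18% to 11.7%) on chromosome 14 and 9.18% (7.62% to 10.9%) on chromosome 4. The lowest shares were 2.33% (1.63% to 3.23%) on chromosome 5 and 3.20% (2.29% to 4.35%) on chromosome 8. The whole-chromosome H3K9me3 ratio moved with this. It was 0.879 on chromosome 4, 0.959 on chromosome 13 and 0.976 on chromosome 14, but 1.06 on both chromosomes 5 and 8. Across the 18 chromosomes the share and the ratio had a Spearman's rho of -0.761 and a Pearson's r of -0.779, a description of points that share the same pair of libraries and reads. When each chromosome was scaled to its own mean, 906 bins were chosen, 609 of them among the original ones, and chromosome 4 then held 5.74%. This lay under the 6.59% of eligible bins on that chromosome.

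**Figure D4:**
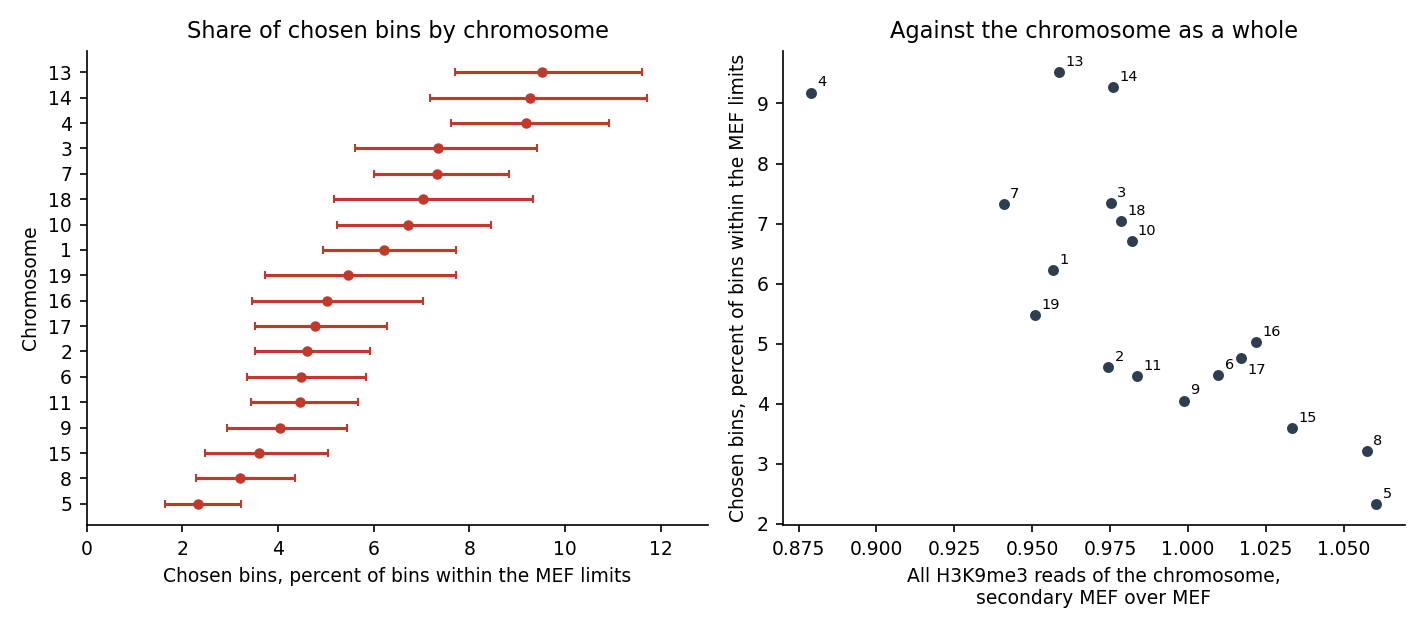
Left, chosen bins as a percent of bins within the MEF limits on each of 18 autosomes, with 95% counting intervals. Right, the same percent against the ratio of all H3K9me3 reads of the chromosome, secondary MEF over MEF; chromosomes 13, 14 and 4 lie above 9% and chromosomes 8 and 5 at 3.20% and 2.33% with the highest ratios.

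In windows of 1 Mb, the bins that were not chosen were also lower where several were. Windows with no chosen bin, 1652 in all, had a ratio of 1.03 over their other bins (lower bins with high H3K27me3 left out as well). The 397 windows with 1 chosen bin had 0.965, the 162 with 2 had 0.934, the 49 with 3 had 0.903, the 18 with 4 had 0.910 and the 17 with 5 or more 0.858 (0.850 to 0.867). Windows without a chosen bin ranged between 0.662 and 1.65, and the 17 fullest between 0.790 and 0.943. The fullest windows also had more MEF H3K9me3, at a mean of 1.55-fold over these other bins, with 0.894-fold in windows with no chosen bin, and more H3K27me3, at 1.59-fold and 0.866-fold.

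The fullest window was on chromosome 13 from 46000001 to 47000000, with 10 chosen bins and 7 lower bins with high H3K27me3. Secondary MEF had 11 to 18 reads in its chosen bins and MEF 36 to 54, and H3K4me3 8 to 28. All 10 lay between 46000001 and 46610000. Over the 107 other bins of that stretch, lower bins with high H3K27me3 left out, secondary MEF averaged 1.09-fold and MEF 1.54-fold, a ratio of 0.703 (0.662 to 0.745), and secondary MEF was the lower in 93 of them. Over the remaining 76 bins of the window the means were 1.34-fold and 1.46-fold, a ratio of 0.923 (0.863 to 0.986). H3K27me3 averaged 1.67-fold over the stretch and 1.14-fold over the remainder. This was the lowest ratio between chosen bins among the 5 fullest windows, and the difference was spread over many bins that the rule did not choose. The stretch was drawn after the windows were seen.

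Of the other 4 fullest windows, chromosome 10 from 21000001 to 22000000 held 9 chosen bins, with 8 to 17 reads in secondary MEF and 36 to 43 in MEF. Between its first and last chosen bin the other bins had a ratio of 0.914 (0.869 to 0.961), nearer to equal than in the remainder of the window at 0.763 (0.669 to 0.869), where MEF averaged only 0.563-fold. Chromosome 4 from 33000001 to 34000000 held 7 chosen bins, and the other bins between them had 1.04-fold in secondary MEF against 1.32-fold in MEF, a ratio of 0.792 (0.752 to 0.834). In the remainder of that window the ratio was 0.842 (0.748 to 0.947), with overlapping intervals. Chromosome 4 from 55000001 to 56000000 held 6, with a ratio of 0.787 (0.748 to 0.828) between them and 0.799 in the remainder. In both windows the chromosome's own ratio of 0.879 is the level to read these against. Chromosome 17 from 30000001 to 31000000 also held 6, including the pair from 30315001 to 30325000 with 34 secondary MEF and 80 MEF reads. They fell within 230 kb, where the 39 other bins had 1.51-fold and 2.00-fold, a ratio of 0.757 (0.696 to 0.824), against 0.978 (0.938 to 1.02) in the remainder of the window.

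**Figure D5:**
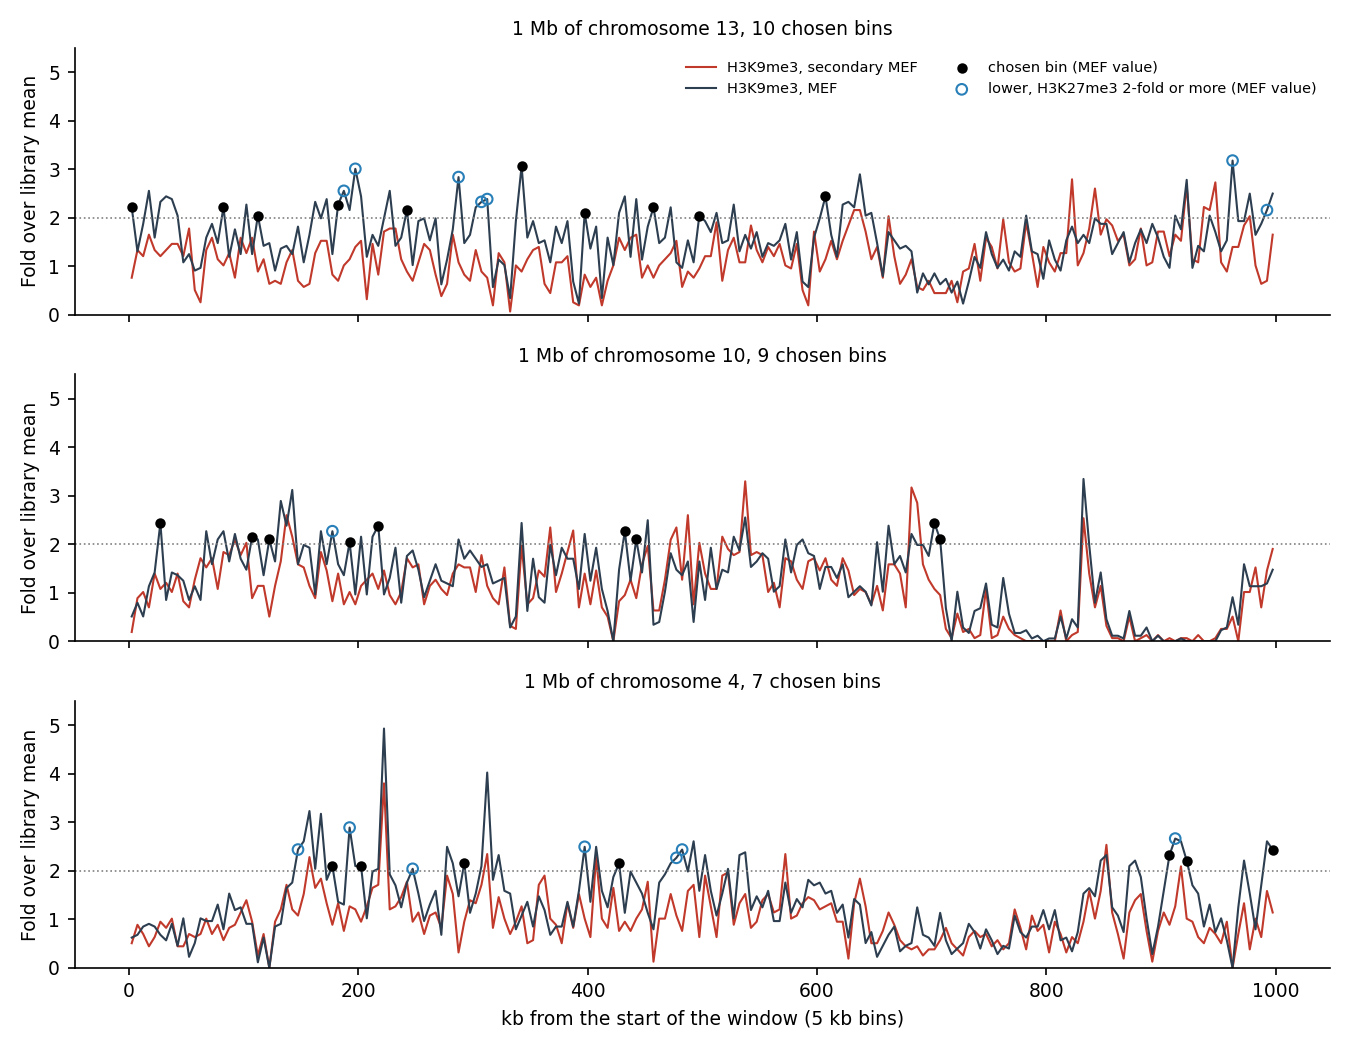
H3K9me3 level in 5 kb bins (vertical axis, fold over the library mean) along the 3 windows of 1 Mb with the most chosen bins, for secondary MEF and MEF; filled points are chosen bins, open points lower bins with H3K27me3 of 2-fold or more, both at their MEF value, and the dotted line is 2-fold. In the chromosome 13 window the secondary MEF line runs below the MEF line in most bins of the first 610 kb, which hold all 10 chosen bins.

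Along the chromosomes, 7.94% (7.03% to 8.92%) of bins within the MEF limits were chosen between 20% and 40% of the chromosome's length, and 3.76% (3.29% to 4.28%) in the last 20%, at the end away from the centromere. In the opposite direction to the rule, 2770 bins with H3K27me3 under 2-fold had secondary MEF H3K9me3 of 2-fold or more and at least 2 times MEF, or 0.625% of eligible bins. They outnumbered the chosen bins under the same scaling and the same limit on MEF H3K27me3. At any level of H3K27me3, 4005 bins (0.903%) met the H3K9me3 conditions of the rule. The opposite direction was not counted without the limit, so the numbers do not show which direction was more common. On minus-strand reads after choosing on the plus strand, such bins had a ratio of 1.37 (1.36 to 1.39). Mean H3K4me3 on minus-strand reads was 0.864-fold in bins chosen as lower on the plus strand, against 4.63-fold in these.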

How the data were processed

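Chromatin immunoprecipitation sequencing libraries of 4 groups were used, 1 library each. The files the authors deposited list read positions with a strand sign, and no level or other normalised value. Bowtie (version not given in the sources used here) had placed the reads on mm8, per the file headers, under --best and --concise with the settings -n 2, -l 36, -e 70, -m 2 and -k 2, so reads with more than 2 locations, and with them most repeated sequence, are missing. Positions were taken as leftmost bases of 36-base reads. Reads with 1 location were kept once per position and strand, moved 75 bp from the 5' end to the 3' side and counted in 5 kb bins with NumPy 2.4.6. Intervals are exact at the 95% level (SciPy 1.17.1): Poisson counts compared as a binomial share for ratios, Clopper-Pearson for shares. The rule was tried on simulated counts with an even background and planted differences larger than those of most chosen bins. This trial does not show how often the rule picks bins near its limits by counting error. Named bins follow a rule: the 10 highest in MEF, the 10 lowest ratios, the 5 longest regions, the 5 fullest windows and bins next to each threshold. The members, lists and measures were chosen with earlier results of these data known. Sequence and gene features were not analysed here, as no mm8 genome was used. Labels give no separate cultures.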

Additional observations from a re-analysis of the deposited data

How the results depend on the processing

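The ratios in unused reads stayed below 1 in the 16 alternatives run for neighbours and 2-location reads and in the 15 run for the other strand (the interval on both strands gives none). The 2-location interval included 1 in 4 of them, with upper ends of 1.299 at 3-fold MEF H3K9me3, 1.086 at a 3-fold difference, 1.223 with H3K27me3 under 1-fold and 1.067 with the 0.1% interval. The main values are 1038 bins, 2.505% with a chosen neighbour, 2.41% at 2-fold H3K4me3, 10.9% on chromosome 4, and ratios of 0.840 beside the bins, 0.746 in 2-location reads and 0.822 on the other strand. With 2.5 kb bins 6252 were chosen (5.21% with a chosen neighbour, 8.86% on chromosome 4, ratios of 0.874 beside and 0.870 on the other strand). With 10 kb bins 102 were (0%, 13.7%, 0.790 and 0.756, with 0% at 2-fold H3K4me3). Moving the grid by 2.5 kb left 1.07% at 2-fold H3K4me3. At 3-fold or more MEF H3K9me3 47 remained (0% with a chosen neighbour, 8.51% at 2-fold H3K4me3, 21.3% on chromosome 4, 0.799 beside and 0.80 on the other strand). At a 3-fold difference 80 remained (0%, 16.25% on chromosome 4, 0.769 and 0.791). With H3K27me3 under 1-fold 95 remained (0%), and the ratios moved nearest to 1, at 0.928 beside, 0.899 in 2-location reads and 0.919 on the other strand. With MEF H3K9me3 at least 2 times the mean of H3K4me3 and H3K27me3, 626 remained (0.958% with a chosen neighbour, 0.160% at 2-fold H3K4me3). That filter uses H3K4me3 itself, so it lowers the last share by construction. Scaling each chromosome gave 0.860 beside and 5.74% on chromosome 4. With an interval allowing 0.1% error below 1, added after seeing the data, 180 remained (0%, 15.6% on chromosome 4, 0.805 beside, 0.866 in 2-location reads). Fewer bins leave fewer neighbours by construction. Apart from this and the filter on H3K4me3, the cause of the shifts was not tested. The remaining alternatives, of which the mean over eligible autosomes, stored minus-strand positions as 5' ends and leaving out the 5 fullest windows were added after seeing the data, moved none of these values beyond the counting interval, or counts beyond 1.5 times. The alternative that leaves out bins of 5-fold or more in every library could move nothing, since the rule admits no such bin. No paired analysis was possible because each group held 1 library. At 36 to 51 MEF reads per bin, the intervals of the 10 named lowest ratios overlap one another.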

Other observations

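Under the same limits, chromosome 12 and the sex chromosomes, which lie outside the description above, stood at the extremes. On chromosome X 13 of 42 bins within the MEF limits met the rule (31.0%), where all its H3K9me3 reads had a secondary MEF to MEF ratio of 0.733. On chromosome 12 3 of 781 did (0.384%), at a ratio of 1.46. On chromosome Y 0 of 7 did, at a ratio of 1.61.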
